A study of Mus musculus with 119 samples.

Results

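The comparison described here is that of THC with vehicle in the nucleus accumbens (NAc) of female mice. It holds 12 of the 119 libraries of a study of 5 brain regions in both sexes, 6 from THC-treated mice (FTL_315 to FTL_320) and 6 from vehicle-treated mice (FTL_309 to FTL_314). The libraries were chosen by number, and the titles of all 12 name the female NAc. Mice of the THC group received THC at 10 mg/kg by daily intraperitoneal injection from postnatal day 28 to postnatal day 48, and mice of the vehicle group received the carrier of ethanol, tween and saline on the same days. Both groups were tested for behavior from postnatal day 63 and then killed for tissue, at an age of 11 weeks by the labels and of 12 weeks by the methods, so all 12 mice had been injected and tested, and no THC was given after postnatal day 48. The labels name the strain as C57BL/6J and the methods of the study as C57BL/6NCrl. Each library is polyadenylated RNA from a tissue punch of 1 mouse, and a punch can take in cells that border the NAc. The labels do not identify the mouse behind a library. By the study's methods each region of a mouse gave 1 library, so the 12 libraries come from 12 mice. The p-values of this comparison thus measure the spread between mice, which includes that of punches and libraries.

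The NAc is the ventral part of the striatum and receives dopamine from the ventral tegmental area. Most of its neurons are GABAergic medium spiny neurons, of which one kind carries the dopamine receptor D1 and dynorphin and another the receptor D2 and enkephalin. THC is a partial agonist of CB1, the cannabinoid receptor encoded by Cnr1. CB1 lies largely on axon terminals, where it is activated by the endocannabinoids 2-arachidonoylglycerol and anandamide and lowers transmitter release.

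Library depth, the total expected count over all genes, ranged over 13305710 to 37788972 in vehicle libraries, with a median of 25056923, and over 16347052 to 37243982 in THC libraries, with a median of 22415437. Xist, the RNA of the inactive X chromosome, was at 888 to 1157 CPM (TMM-normalized counts scaled to a common library size) in the 12 libraries, and Kdm5d, Eif2s3y, Uty and Ddx3y of the Y chromosome summed to at most 0.200 CPM, so each library had the counts of its labelled sex. The tissue carried its defining markers. All 14 listed markers of medium spiny neurons were measured, and their summed level was 7102 to 10748 CPM with vehicle and 8780 to 9992 CPM with THC. Transcripts of cells that border the NAc were also present and varied between libraries, as described further on.

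No gene was called for THC in the female NAc. Of 16428 genes tested, 0 (0%) met both thresholds of edgeR's quasi-likelihood test, a Benjamini-Hochberg adjusted p under 0.05 and a log2 fold change of 0.4 or more in either direction, and the smallest adjusted p was 0.991. DESeq2 also called 0, with a smallest adjusted p of 0.138. Without adjustment, 757 genes (4.61%) had a p under 0.05, of which 400 (2.43% of those tested) had a higher level in THC libraries and the rest (2.17%) a lower one. The median log2 fold change over all genes was -0.0012. The absolute log2 fold change of the 757 genes had a median of 0.15, and for 132 of them it reached 0.4.

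How large a difference could have been missed depended on the level of a gene. The 95% interval of the log2 fold change lay within 0.4 on either side of 0 for 72.7% of the genes tested. That share was 98.9% of the 2370 genes with a mean of 100 CPM or more, 96.3% of the 7942 genes between 10 and 100 CPM, 44.2% of the 4398 genes between 1 and 10 CPM and 0% of the 1718 genes under 1 CPM. Median standard errors in those classes were 0.05, 0.06, 0.15 and 0.29. Differences of 0.4 or more thus lay outside the interval for most genes above 10 CPM, and for no gene under 1 CPM did they lie outside it on both sides.

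**Figure D1:**
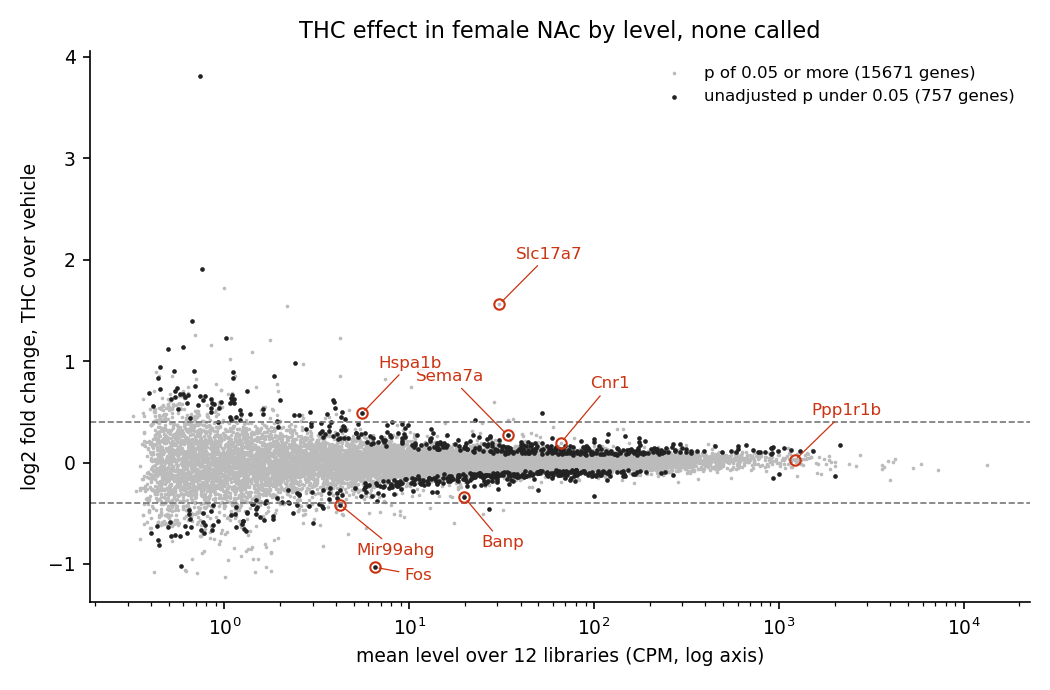
Each point is 1 of 16428 genes, with its mean level over the 12 libraries in CPM on a log axis and its log2 fold change of THC over vehicle; black points are the 757 genes at an unadjusted p under 0.05 and dashed lines mark a log2 fold change of 0.4 in either direction. The cloud narrows as the level goes up, and Slc17a7 at 1.56 and Fos at -1.03 stand apart from genes of like level, while Cnr1 (0.20) and Ppp1r1b (0.02) lie inside the lines.

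Sema7a had the smallest p of all genes. It encodes semaphorin 7A, a membrane-anchored semaphorin that acts in axon growth and synapse formation, and lies on chromosome 9 from 57940112 to 57962865 (GRCm38, plus strand). Its level was 29.1 to 32.8 CPM (median 30.9) in the vehicle libraries and 33.8 to 40.2 CPM (median 37.6) in the THC libraries. All 6 THC libraries were above all 6 vehicle libraries. The log2 fold change was 0.27 with a 95% interval of 0.16 to 0.38, and it did not pass the correction over all genes (edgeR adjusted p = 0.991). Sema7a was named for its p, so the gap between the groups and an interval away from 0 follow from that choice. With marker scores of ependyma and of cortical projection neurons in the fit, an alternative chosen after the data were seen, the log2 fold change was 0.22 (edgeR adjusted p = 0.774, where the range over all alternatives was 0.138 to 0.99996). Over all genes tested, the groups were separated in this direction at 13 (0.0791%) and in the other at 21 (0.128%).

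The Sema7a promoter is shown because Sema7a was the 1 gene called by edgeR when the THC response was compared between the NAc and the DMS. That call used the same NAc libraries and depended on single libraries, as described further on. The window is chr9:57939862-57940161 on the plus strand (RefSeq, GRCm38.p6), 250 bases before and 50 after the annotated start. Capitals mark GGGCGG, the core of the GC box bound by Sp1 family factors, which was searched on both strands and occurred on the plus strand 84 and 71 bases before the start. Of 32851 windows of this length, 35.7% held it on either strand.
Sema7a: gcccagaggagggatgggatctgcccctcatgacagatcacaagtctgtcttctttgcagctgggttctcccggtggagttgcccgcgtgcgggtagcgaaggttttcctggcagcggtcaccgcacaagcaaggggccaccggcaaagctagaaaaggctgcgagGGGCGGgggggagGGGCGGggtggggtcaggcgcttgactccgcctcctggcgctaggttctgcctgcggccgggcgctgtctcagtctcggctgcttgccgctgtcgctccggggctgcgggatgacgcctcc
In this window 67.3% of the bases were G or C.

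The other 11 genes of smallest p with a higher mean in THC libraries had log2 fold changes of 0.14 to 0.48, and none was called. At Vps8, a subunit of an endosomal tethering complex, the vehicle libraries held 38.6 to 41.5 CPM (median 40.1) and the THC libraries 43.8 to 47.3 CPM (median 45.0), without overlap (log2 fold change 0.17, 95% interval 0.09 to 0.24). Nos1, the neuronal nitric oxide synthase of a class of striatal interneurons, was at 80.9 to 100.6 CPM in vehicle libraries (median 93.6) and 102.7 to 120 CPM in THC libraries (median 104), with a log2 fold change of 0.23 and an interval of 0.10 to 0.35. The groups did not overlap at Nos1 either, although the lowest THC library was close to the highest vehicle library. H6pd, a pentose phosphate enzyme of the endoplasmic reticulum, Tex264, an endoplasmic reticulum receptor for autophagy, and Enc1, an actin-binding protein of neurons, were likewise separated, with log2 fold changes of 0.28, 0.14 and 0.14. Over all 16428 genes, separation in this direction was seen at 13 (0.0791%), and a choice by small p favors such genes. Cdh5, the cadherin of endothelial junctions, had 5.81 to 7.79 CPM in vehicle libraries (median 6.41) and 7.51 to 9.64 CPM in THC libraries (median 8.54), and 5 of the 6 THC values exceeded every vehicle value (log2 fold change 0.37, 95% interval 0.18 to 0.57). The largest estimate of the 12 belonged to Hspa1b, an inducible heat shock protein 70 gene, at 0.48 (95% interval 0.22 to 0.75), with 3.18 to 5.30 CPM in vehicle and 5.06 to 7.67 CPM in THC libraries. Hspa1b has a near-identical neighbour, so reads can be divided between the copies and its value is uncertain. Otud7a, Slco5a1, Fhod3 and Atp5g2 made up the rest, with log2 fold changes of 0.20 to 0.26.

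The 12 genes of smallest p with a lower mean in THC libraries had log2 fold changes of -0.41 to -0.14, and again none was called. Banp, a nuclear protein that binds unmethylated CG motifs, had 19.2 to 26.4 CPM in vehicle libraries (median 21.6) and 15.7 to 19.8 CPM in THC libraries (median 17.4), and 4 of 6 THC libraries were below all vehicle libraries (log2 fold change -0.34, 95% interval -0.53 to -0.16). Pgpep1, a peptidase that removes pyroglutamate from peptides, was at 11.8 to 13.3 CPM with vehicle (median 12.3) and 10.5 to 11.1 CPM with THC (median 10.7). Its THC libraries were tightly grouped and all lay below the vehicle libraries (log2 fold change -0.21, 95% interval -0.33 to -0.10). Mir99ahg, a long noncoding host transcript of microRNAs, had 4.34 to 5.74 CPM with vehicle and 2.93 to 4.32 CPM with THC, again without overlap (log2 fold change -0.41, 95% interval -0.66 to -0.17). Hook3, Adam17, Scai, Magt1 and Atg10 were separated as well, of which Adam17 encodes the main shedding protease of the cell surface and Atg10 an enzyme of autophagosome formation. The groups overlapped at Tent2, Pfkfb3, Lpar1 and Zfp36l2. Of all 16428 genes, 21 (0.128%) were separated in this direction, and a choice by small p favors such genes. Pfkfb3 makes the activator of phosphofructokinase, Lpar1 is a lysophosphatidic acid receptor of myelinating cells and Zfp36l2 is a protein that promotes the decay of AU-rich messages.

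**Figure D2:**
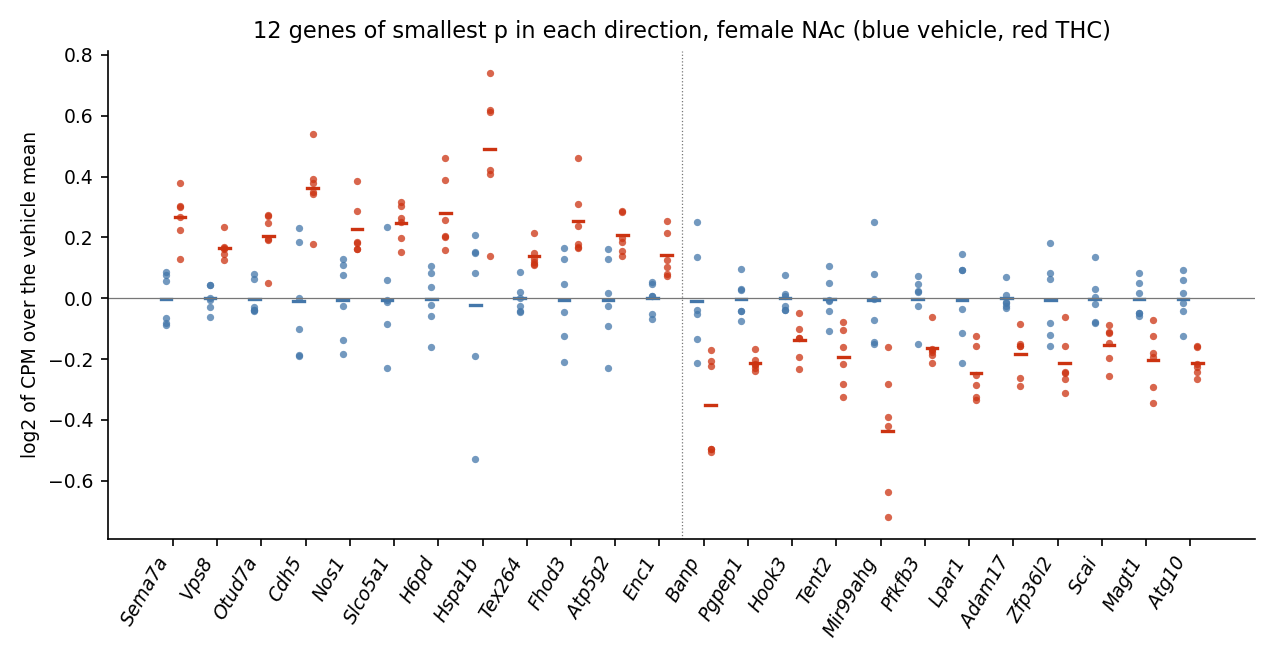
For the 12 genes of smallest p in each direction, each dot is 1 library, as the log2 of its CPM over the mean of the vehicle libraries (blue vehicle, red THC, n = 6 each), and short lines are group means of these log2 values. THC libraries sit above vehicle libraries without overlap at Sema7a, Vps8, Nos1, H6pd, Tex264 and Enc1 on the left, and the largest mean difference is that of Hspa1b, whose lowest vehicle library was at 3.18 CPM.

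Genes of the endocannabinoid system showed no call. Of 18 members 15 were tested, and none had an unadjusted p under 0.05, beside 4.61% of all genes tested. Their median log2 fold change was 0.03, beside -0.0012 for all genes. Cnr1 was at 52.2 to 79.2 CPM in vehicle libraries (median 59.3) and 55.3 to 91.2 CPM in THC libraries (median 67.8). The ranges overlapped over most of their length, and the interval of the log2 fold change (0.20) ran from -0.10 to 0.50, so Cnr1 differences within that interval could not be told from 0. Dagla, the main lipase that makes 2-arachidonoylglycerol in neurons, had the smallest p of the list, with 59.4 to 74.3 CPM in vehicle and 66.8 to 77.4 CPM in THC libraries (log2 fold change 0.10). The lipases that break down 2-arachidonoylglycerol had narrow intervals around 0. These were -0.11 to 0.22 for Mgll, -0.05 to 0.13 for Abhd6 and -0.05 to 0.12 for Abhd12. For anandamide, Napepld, a phospholipase of its synthesis, had a log2 fold change of -0.11 (interval -0.28 to 0.06) and Faah, its main hydrolase, one of 0.09 (interval -0.08 to 0.26). Cnr2, Gpr55 and Trpv1 did not pass the filter on low counts, and Cnr2, the gene of the CB2 receptor of immune cells, was at 0.0367 to 0.370 CPM over the 12 libraries.

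No call was made either among the 4 key driver genes that the study named in common for a male and a female NAc coexpression module. The female module was built with female NAc libraries of this study, so the list is not independent of these data. The log2 fold changes of the 4 genes were 0.17 for Hapln4, a link protein of perineuronal nets, 0.07 for Kcnc1, a Kv3 potassium channel gene of fast-spiking neurons, 0.14 for Elavl2, a neuronal RNA-binding protein, and -0.09 for Zcchc12. At p under 0.05 were 0 of 4, beside 4.61% of all genes tested. Elavl2 varied most between libraries of a group, from 31.2 to 59.9 CPM with vehicle and from 30.7 to 58.0 CPM with THC.

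Markers of the medium spiny neurons differed little between the groups. Of the 14 shared markers 0 reached p under 0.05, the median log2 fold change was 0.02, and for all 14 the 95% interval lay within 0.4 of 0. Ppp1r1b, which encodes the dopamine-regulated phosphatase inhibitor DARPP-32, was at 874 to 1378 CPM in vehicle libraries (median 1243) and at 1109 to 1335 CPM in THC libraries (median 1246). Its log2 fold change was 0.02 with an interval of -0.19 to 0.23. The markers of the D2 neurons (Drd2, Adora2a, Penk, Gpr6, Sp9 and Gpr52) had log2 fold changes of -0.08 to 0.02. Of the 7 markers of the D1 neurons, 1 had p under 0.05, beside 4.61% of all genes tested. This was Chrm4, the muscarinic receptor gene M4, with 32.3 to 42.2 CPM in vehicle and 39.2 to 47.9 CPM in THC libraries (log2 fold change 0.17, 95% interval 0.03 to 0.32). Pdyn (0.13), Tac1 (0.14) and Drd1 (0.01), which encode prodynorphin, the substance P precursor and the D1 receptor, did not reach it. In bulk tissue fewer cells of a type and less RNA per cell cannot be told apart.

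Dopamine, opioid, glutamate and GABA receptor genes were read in the same way, against the 4.61% of all tested genes with an unadjusted p under 0.05. In the list of dopamine signaling it was 2 of 11 tested, both with a higher mean in THC libraries. Drd5, the D5 receptor gene, was at 3.52 to 4.14 CPM with vehicle and 3.31 to 6.28 CPM with THC, where 5 THC libraries were above and 1 was below all vehicle libraries (log2 fold change 0.35, 95% interval 0.06 to 0.63). Slc6a3, the dopamine transporter gene of midbrain dopaminergic neurons, was at 0.273 to 0.498 CPM with vehicle and 0.582 to 0.859 CPM with THC (log2 fold change 0.73, interval 0.26 to 1.21). The groups did not overlap at Slc6a3, which was seen in this direction at 13 of all tested genes (0.0791%). Every library was under 1 CPM at Slc6a3, and the cell bodies of these neurons lie outside the striatum. None of the 8 opioid peptide and receptor genes had p under 0.05, and the intervals were -0.24 to 0.23 for Oprm1 and -0.16 to 0.14 for Oprk1, the mu and kappa receptor genes. Among 15 ionotropic glutamate receptor genes Grin2c, an NMDA receptor subunit found largely in astrocytes and cerebellum, had a log2 fold change of 0.18 (95% interval 0.04 to 0.31) and Grik2, a kainate receptor subunit, one of -0.08. Of 12 GABA-A receptor genes 1 had p under 0.05 (Gabrg1, -0.12), and all 12 intervals lay within 0.4 of 0. Of 7 metabotropic glutamate receptor genes tested 0 did.

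Glial and vascular lists were described by the same counts. All 11 oligodendrocyte genes had a lower mean in THC libraries, with a median log2 fold change of -0.13, and 1 had p under 0.05. Ermn, a protein of myelinating oligodendrocytes, was at 46.2 to 64.1 CPM in vehicle libraries (median 53.6) and 38.6 to 48.4 CPM in THC libraries (median 45.4), with a log2 fold change of -0.27 and an interval of -0.44 to -0.10. Members of this list mark 1 cell type, so their common sign is not 11 separate observations. The summed level of the list was 3945 to 5169 CPM with vehicle and 3680 to 4550 CPM with THC, and 2 of 6 THC libraries were below all vehicle libraries. Of 9 astrocyte genes 2 had p under 0.05 (4.61% of all genes did), both with a higher mean in THC libraries. Aldoc, the aldolase of brain astrocytes, was at 538 to 594 CPM with vehicle and 573 to 697 CPM with THC (log2 fold change 0.16, 95% interval 0.06 to 0.27), and Aldh1l1, an astrocytic folate enzyme, had a log2 fold change of 0.13. The intervals of the glutamate transporter genes Slc1a2 (-0.09 to 0.20) and Slc1a3 (-0.07 to 0.13) covered 0. Trem2, a lipid receptor of microglia, was the 1 of 10 microglial genes under 0.05 (log2 fold change -0.21, 95% interval -0.40 to -0.02). In the endothelial list Cdh5 (0.37) was joined by Cldn5, a tight junction claudin, with an estimate of opposite sign (-0.15, 95% interval -0.26 to -0.04), and the other 10 genes did not reach 0.05.

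Response genes were also compared, against the 4.61% of all tested genes with an unadjusted p under 0.05. Of 18 immediate early genes, which neurons transcribe within minutes of activity, 1 had p under 0.05. Fos was at 3.64 to 17.2 CPM in vehicle libraries (median 6.62) and 1.99 to 8.16 CPM in THC libraries (median 4.11). The groups overlapped widely, and the log2 fold change of -1.03 had an interval of -2.04 to -0.03. The median of the list was -0.01, with -0.60 for Npas4 (95% interval -1.24 to 0.05), 0.43 for Nr4a1 and -0.02 for Junb. Summed levels of this list followed library number within both groups, as described further on. Of the 16 clock genes 0 reached p under 0.05 and all intervals lay within 0.4 of 0. Among 9 glucocorticoid-responsive genes Pdk4, a mitochondrial kinase that restrains pyruvate use, was the only one under 0.05 (log2 fold change -0.22, 95% interval -0.40 to -0.03), with Fkbp5, a glucocorticoid receptor co-chaperone, at 0.09. In the list of interferon and MHC class I genes it was Ifit3, an interferon-induced protein, at -0.32 (95% interval -0.53 to -0.11) with 6.64 to 9.29 CPM in vehicle and 5.47 to 7.92 CPM in THC libraries, 1 of 14. Of 8 receptor genes for sex hormones and related hormones 0 reached it.

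Of 10 synaptic plasticity genes 2 were under 0.05, beside 4.61% of all genes, Syn1, a synaptic vesicle phosphoprotein (log2 fold change 0.18, 95% interval 0.07 to 0.29), and Creb1, an activity-regulated transcription factor (-0.10). Syn1 was at 234 to 270.5 CPM with vehicle and 263.1 to 320.4 CPM with THC, with 4 of 6 THC libraries above all vehicle libraries. Of 9 perineuronal net genes 2 were, Has3, a hyaluronan synthase (0.32, 95% interval 0.07 to 0.57), and Hapln1, a link protein (-0.15). In each of these lists the members past 0.05 pointed in opposite directions. In the remaining lists 2 genes had p under 0.05, again beside 4.61% of all genes. These were Nos1 among 8 genes of GABAergic interneurons, Col1a2, a fibrillar collagen, among 6 genes of meningeal fibroblasts (95% interval 0.12 to 0.53). It was 0 of 5 genes of cholinergic interneurons, 0 of 5 enriched in the accumbens, 0 of 9 of progenitors and neuroblasts, 0 of 6 of septum and basal forebrain, 0 of 6 of oligodendrocyte precursors, 0 of 5 tested of the choroid plexus and 0 of 5 of blood.

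Most of the variance lay between libraries of the same group. The first principal component of the 500 most variable genes held 35.8% of the variance, and treatment had an R2 of 0.0495 on it (exact permutation test over 924 splits, p = 0.478). On the second component, with 12.8% of the variance, the R2 of treatment was 0.154 (exact permutation test, p = 0.188, adjusted p = 0.377). At the high end of the first component were genes of motile cilia, among them Dnah3, Cfap43 and Dnali1, with Tmem212, and at the low end genes such as Chrna2, Ngfr, Gbx1, Npas1, Pvalb and Slc17a6. The high end of the second component held Slc17a7, Neurod6, Slc30a3 and Neurod2, genes of cortical glutamatergic neurons. Libraries of both groups lay at both ends of each component. Some levels followed library number within both groups, which was seen only after the values were known. The sum of cholinergic interneuron genes was 67.1 to 76.2 CPM in FTL_309 to FTL_311 and FTL_315 to FTL_317. In FTL_312 to FTL_314 and FTL_318 to FTL_320 it was 97.3 to 124 CPM. Sums of the immediate early genes went the other way, at 536 to 720 CPM in the former libraries and 446 to 518 CPM in the latter. First component scores of THC libraries were -3.26 to 18.1 in the former and -16.7 to -12.7 in the latter. In vehicle libraries those scores overlapped, with FTL_310 at 2.66 and FTL_314 at 7.31. Microglial sums overlapped between these sets. What the number stands for is not in the labels, and no fit had a term for it.

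**Figure D3:**
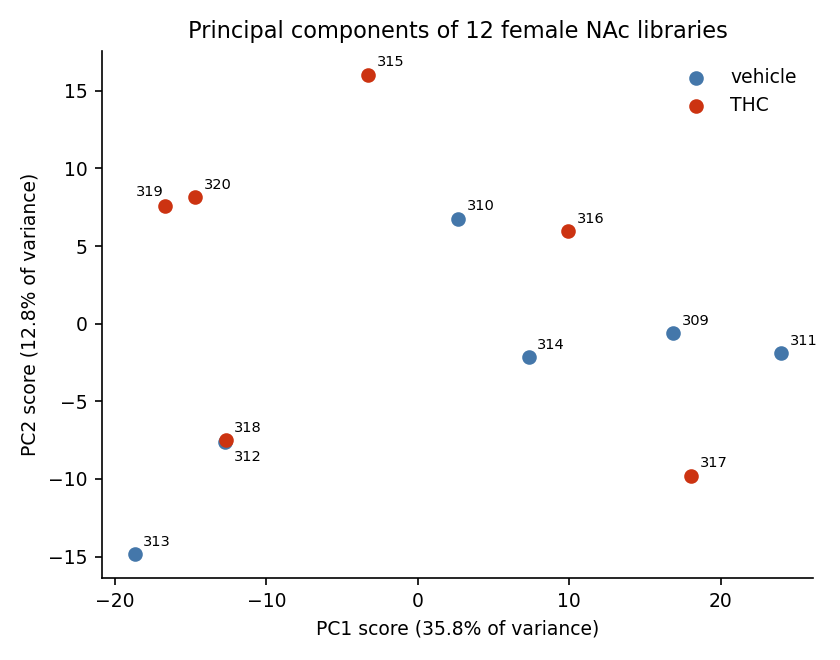
Scores of the 12 libraries on the first and second principal components (share of variance on each axis), colored by treatment and labelled with the library number. Vehicle library FTL_311 and THC library FTL_317 are at the right with vehicle library FTL_309, vehicle library FTL_313 is at the lower left and THC library FTL_315 at the top, and vehicle library FTL_312 and THC library FTL_318 nearly coincide.

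Ependymal genes were at the high end of the first component. Ependymal cells line the ventricles, carry motile cilia and border the NAc at the lateral ventricle. The 5 listed ependymal genes summed to 33.4, 15.5, 58.4, 11.1, 12.1 and 25.0 CPM in vehicle libraries FTL_309 to FTL_314 and to 13.6, 23.7, 40.0, 9.73, 9.25 and 9.59 CPM in THC libraries FTL_315 to FTL_320. The sum was 6.31 times as high in the highest library as in the lowest, and the highest libraries were 1 of each group (FTL_311 and FTL_317). Foxj1, the master factor of motile cilia, ranged from 4.88 to 20.2 CPM with vehicle and from 3.96 to 15.4 CPM with THC. Its log2 fold change of -0.47 had an interval of -1.49 to 0.54, and all 5 genes had a lower mean in THC libraries with 0 at p under 0.05. Dnah3, a heavy chain of ciliary dynein, Cdhr4, a cadherin-related gene, and Lrrc74b were among the 20 genes of largest spread and were highest in the same vehicle library (FTL_311). Dnah3 ran from 0 CPM in THC library FTL_318 to 6.72 CPM in vehicle library FTL_311.

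Promoters of these genes are shown because genes of motile cilia are known targets of RFX factors, which bind paired half-sites of the letters GTTGCC. Of 8 genes (the ependymal list with Dnah3, Cdhr4 and Lrrc74b) 5 had a window in the RefSeq table, and 3 of the 5 held GTTGCC on either strand, beside 14.1% of the 27025 gene symbols with a window. Capitals mark the match, on the minus strand as GGCAAC in Cdhr4. The windows are chr9:44240427-44240726 for Ccdc153, chr8:116504765-116505064 for Dynlrb2 and chr9:107992207-107992506 for Cdhr4, all on the plus strand of GRCm38.p6 with 250 bases before and 50 after the start.
Ccdc153: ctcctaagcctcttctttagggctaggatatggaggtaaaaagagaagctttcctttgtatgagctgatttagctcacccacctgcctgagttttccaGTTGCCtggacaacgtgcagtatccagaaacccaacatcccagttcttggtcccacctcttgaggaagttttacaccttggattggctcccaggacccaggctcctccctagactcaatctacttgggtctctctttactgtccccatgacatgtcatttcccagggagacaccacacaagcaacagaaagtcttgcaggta
Dynlrb2: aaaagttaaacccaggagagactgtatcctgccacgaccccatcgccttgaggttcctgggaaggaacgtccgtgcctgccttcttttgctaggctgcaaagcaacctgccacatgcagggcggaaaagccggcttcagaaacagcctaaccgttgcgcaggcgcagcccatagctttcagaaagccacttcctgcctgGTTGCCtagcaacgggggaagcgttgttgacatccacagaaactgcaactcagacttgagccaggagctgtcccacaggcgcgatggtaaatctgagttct
Cdhr4: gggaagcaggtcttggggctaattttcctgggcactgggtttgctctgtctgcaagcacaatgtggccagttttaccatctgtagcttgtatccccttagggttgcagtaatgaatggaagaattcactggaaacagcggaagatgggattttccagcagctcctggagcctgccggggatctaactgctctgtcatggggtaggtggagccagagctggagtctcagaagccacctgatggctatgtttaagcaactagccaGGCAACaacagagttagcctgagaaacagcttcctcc
The match began 152 bases before the start in Ccdc153, 51 bases before it in Dynlrb2 and after the RefSeq start in Cdhr4. GENCODE M21 puts the start of Cdhr4 at chr9:107992497, past the match. A match of these letters is a description of the window and no evidence of binding.

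Cortical transcripts varied even more. The 8 listed genes of cortical projection neurons summed to 8.73 to 52.9 CPM in vehicle libraries and to 7.03 to 156 CPM in THC libraries (median 61.2), 22.2 times from the lowest to the highest library. In THC libraries FTL_315, FTL_316 and FTL_320 the sum was 100.2, 90.3 and 156 CPM, above every vehicle library, and in FTL_317 and FTL_318 it was below every vehicle library. Slc17a7, the vesicular glutamate transporter of cortical neurons, made up 65.4% of the sum and was at 0.805 to 35.3 CPM with vehicle and 0.736 to 119 CPM with THC. Its log2 fold change of 1.56 came with an interval of -0.98 to 4.10. The median of the 7 tested members was 0.85, with 6 higher and 1 lower in THC libraries and 0 of 7 at p under 0.05. Slc17a7, Tbr1, Neurod6 and Neurod2 were highest in FTL_320, but the members did not all vary together. Fezf2 (log2 fold change -0.14) was at 3.44 CPM in FTL_317 and 2.54 CPM in FTL_320. In vehicle library FTL_313 Tbr1 (7.40 CPM) and Nrn1 (5.70 CPM) had their highest vehicle values, while Slc17a7 was at 0.888 CPM. With scores of ependymal and cortical genes as covariates, chosen after the data were seen, 0 genes were called and 1048 had an unadjusted p under 0.05.

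Genes of the septum and basal forebrain, the regions medial and ventral to the NAc, formed a further source of spread. Their sum, 60.9% of it Zic1, was 77.8 to 178 CPM with vehicle and 122 to 205 CPM with THC. Vehicle library FTL_312 was far below the other vehicle libraries in this sum, but the members did not vary together. It was the lowest vehicle library at Zic1 (34.4 CPM), Zic4 (3.06 CPM) and Trpc4 (10.4 CPM). At Gbx1 (12.3 CPM), Slc17a6 (10.3 CPM) and Ngfr (7.32 CPM) it was above the vehicle medians of 6.20, 6.19 and 5.59 CPM. Ngfr, the p75 receptor of basal forebrain cholinergic neurons, ranged from 1.82 to 15.3 CPM with vehicle and from 2.83 to 24.4 CPM with THC. Ttr, the defining transcript of the choroid plexus, was at 0 to 0.172 CPM, while the whole list of 8 choroid plexus genes summed to 39.6 to 59.6 CPM with vehicle and 43.7 to 53.1 CPM with THC, 54.0% of it Clic6. Mki67, a marker of dividing cells such as progenitors of the subventricular zone, was at 3.06 to 14.7 CPM with vehicle and 1.79 to 14.6 CPM with THC.

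**Figure D4:**
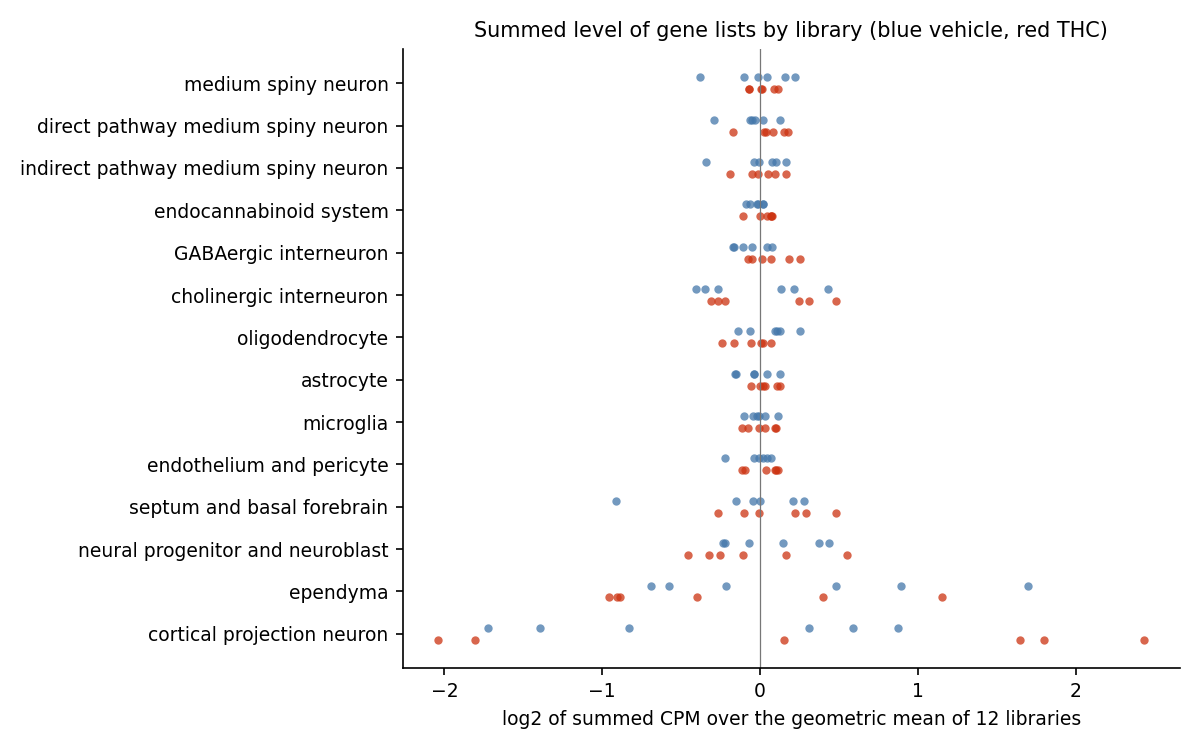
Each dot is 1 library (blue vehicle, red THC, n = 6 each), placed by the log2 of its summed CPM over the genes of a list relative to the geometric mean of the 12 libraries. Lists of medium spiny neurons, glia and endothelium stay within 1 unit, whereas over the 12 libraries together the ependymal sums span 6.31-fold and the cortical sums 22.2-fold, the latter with THC libraries at both ends.

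Several of the genes of largest spread were near-identical copies among which the count of shared reads was divided. Rn7s1 and Rn7s2, 2 copies of the 7SL RNA of the signal recognition particle on chromosome 12, were each between 0 and 62.1 CPM, while their sum stayed between 35.6 and 74.3 CPM. In 6 libraries over 90% of the sum was assigned to 1 copy, and in 4 the copies had equal values. The processed pseudogenes Gm10359 and Gm12671, on chromosomes 5 and 4, had equal values in all 6 vehicle libraries (18.5 to 25.2 CPM). In 5 of 6 THC libraries over 90% of their sum was assigned to 1 of the copies, to Gm12671 in libraries FTL_315, FTL_316 and FTL_319 and to Gm10359 in libraries FTL_317 and FTL_320. The sum of this pair was 37.0 to 50.4 CPM with vehicle and 37.9 to 60.1 CPM with THC, and the sums of the groups overlapped. In the remaining THC library, FTL_318, the copies had equal values as in the vehicle libraries. Values of single members of such pairs are not interpretable as levels.

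The THC response in the female NAc was then compared with that in the male NAc, from 12 libraries of male mice given THC or vehicle. The test of the sex x treatment interaction called 0 of 16773 genes (0%), and 1845 (11.0%) had an unadjusted p under 0.05. The smallest p-values belonged to Dok3, an adaptor of immune cells, with a log2 fold change of -0.22 in females and 0.36 in males (edgeR adjusted p = 0.383), and to Trim26 on the other side, with 0.09 and -0.24. Sema7a was among the 6 genes of smallest p in its direction. In the NAc libraries of both sexes on a common scale its level in females was 30.9 ± 1.79 CPM with vehicle and 37.2 ± 2.25 CPM with THC (mean ± SD, n = 6). In males it was 37.4 ± 4.46 CPM with vehicle and 33.0 ± 3.55 CPM with THC (mean ± SD, n = 6). The groups were apart in females and overlapped in males, where the log2 fold change was -0.18 with an interval of -0.35 to 0.0007. The interaction of -0.44 had an adjusted p of 0.383 and was not called. Vps8 and Otud7a were on the same list, with interactions of -0.27 and -0.25. The female NAc libraries by which these 3 genes were ranked are part of this fit, so their place on the list is no separate observation.

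Against the dorsal medial striatum (DMS) of female mice, the other striatal region, 1 gene was called. The region x treatment interaction passed the thresholds at Sema7a only, 1 of 16834 genes (0.00594%), while 1434 genes (8.52%) had an unadjusted p under 0.05. On the scale of these 24 libraries Sema7a was at 27.8 to 31.6 CPM in vehicle libraries (median 29.6) and 32.5 to 38.6 CPM in THC libraries (median 36.1) in the NAc. In the DMS it was at 95.4 to 143 CPM in vehicle libraries (median 114) and 86.5 to 98.1 CPM in THC libraries (median 90.6). All 6 THC libraries were above all vehicle libraries in the NAc, and 5 of 6 were below all vehicle libraries in the DMS. The log2 fold change was 0.27 in the NAc and -0.36 in the DMS (standard error 0.08), and the interaction, DMS minus NAc, was -0.63 (standard error 0.10, edgeR adjusted p = 0.0358). Sema7a was not called in either region alone (adjusted p = 0.991 in the NAc and 0.212 in the DMS).

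The size of this interaction held while its call depended on single libraries. Leaving out 1 of the 24 libraries at a time gave interactions of -0.68 to -0.57, and the adjusted p ran from 0.00153 to 0.12, above 0.05 in 16 of the 24 fits. The call was kept without vehicle libraries FTL_285, FTL_286, FTL_287 or FTL_289 or THC library FTL_293 of the DMS, and without vehicle libraries FTL_313 or FTL_314 or THC library FTL_317 of the NAc, and it was lost without any other library. DESeq2 called Sema7a (adjusted p = 4.26e-05) together with 11 other genes, among them Tbc1d30, a Rab GTPase activator, with an interaction of -0.44, and Enc1, with -0.42. By the study's methods the regions were punched from the same mice, so the NAc and DMS libraries share animals. The labels do not say which libraries share a mouse, so the fit treated all 24 as independent, and the adjusted p does not take the sharing into account. The libraries of the regions stand in separate tables, so that each response was measured within a table while the difference in level between the regions also contains any difference between the tables. Pgpep1 and Tent2, named above for their lower means in the NAc, were among the 6 genes of smallest p with the opposite sign. Their interactions were 0.34 and 0.29 (edgeR adjusted p = 0.211 and 0.244). The fit contains the NAc libraries by which these genes and Sema7a were ranked, so their place in it is no separate observation.

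**Figure D5:**
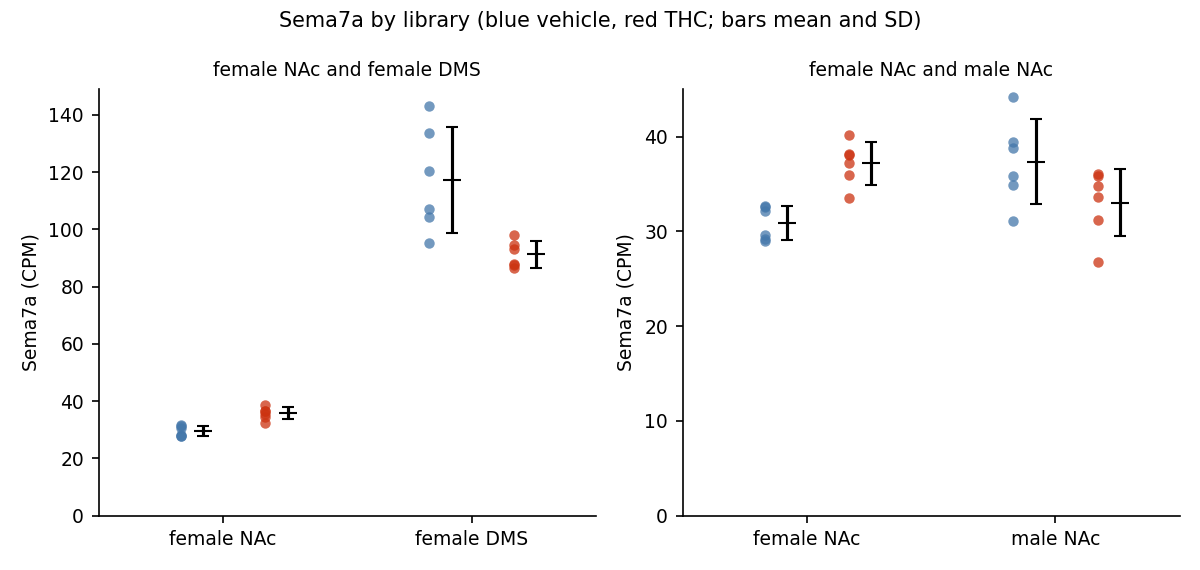
Sema7a in CPM by library (blue vehicle, red THC, n = 6 each) with the mean and SD in black, on the left in the female NAc and female DMS and on the right in the female and male NAc, each panel normalized over its 24 libraries. In the female NAc all THC libraries are above all vehicle libraries, whereas in the female DMS the vehicle libraries reach 143 CPM and the THC libraries 98.1 CPM.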

How the data were processed

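Messenger RNA of NAc punches was sequenced as 12 libraries of female mice, grouped by their titles. For the stranded poly(A) libraries, the authors trimmed reads with cutadapt 2.9, aligned them to mm10 with STAR 2.7.3a and counted them with RSEM 1.3.1, as the methods and the submitters' processing notes state; the annotation release is not given in the sources used here. The deposited values, for 55291 genes, are RSEM expected counts, which the authors did not normalize. RSEM divides a read that matches several genes among them, so 4.98% of the values were not whole (tolerance 1e-06), and copies share counts.

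Expected counts were rounded and tested with edgeR 4.0.16 in R 4.3.3 (filter on low counts, TMM, robust quasi-likelihood F test) on the 12 libraries, with Benjamini-Hochberg adjustment over all tested genes. Calls needed an adjusted p under 0.05 and a log2 fold change of 0.4 or more in size, as in the study. Intervals are 95%, come from the standard error of the fit and are not adjusted for the choice of genes by p. Interactions used 1 fit of 24 libraries. Principal components used log2 CPM (prior count 2) of 500 genes. The scripts were tested on simulated data. No 2 libraries agreed within sampling noise.

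Alternatives were DESeq2 1.42.0, its size factors in edgeR, no filter, all 4 NAc groups in 1 fit, 1 surrogate variable (sva 3.50.0), limma 3.58.1 voom with library weights and each library left out. Marker scores as covariates and libraries left out of the region interaction were added after the data were seen. Genes named are the 12 of smallest p in each direction, members of 32 lists, the 20 of largest within-group spread (mean of at least 1 CPM) and the 6 of smallest p in each direction of an interaction; Vwf was named after its values were seen. Genes of the principal components were named by their loadings. The comparison and the lists were chosen with earlier results of these data known. Coordinates are from GENCODE M21 and promoters from RefSeq (both GRCm38).

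Depth per library limits genes of low level, and with 6 libraries a group the precision is that of the intervals given.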

Additional observations from a re-analysis of the deposited data

Results flagged for a closer look

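The response of Sema7a to THC differed between the female NAc and the female DMS, with an interaction of -0.63 on the log2 scale (DMS minus NAc); its adjusted p of 0.0358 went above 0.05 in 16 of the 24 fits that left out 1 library (up to 0.12), and the fit did not take into account that the regions share mice.

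Single libraries stood apart from the other 5 of their group by Dixon's ratio (above its critical value for 6 values) in 5 of 82 sets of values examined, where chance marks about 1 set in 20. Vehicle library FTL_312 was lowest in the summed level of septum and basal forebrain genes (77.8 CPM) and in that of endothelial and pericyte genes (214.9 CPM). Zic1 made up 60.9% of the former sum, and at Gbx1, Slc17a6 and Ngfr of that list FTL_312 was above the vehicle median. THC library FTL_315 was highest in meningeal fibroblast genes (69.2 CPM). Among the genes of smallest p, THC library FTL_317 was lowest at Otud7a (38.9 CPM) and THC library FTL_319 highest at Pfkfb3 (34.4 CPM), in each case the THC library nearest to the vehicle libraries.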

How the results depend on the processing

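The count of 0 called genes held under DESeq2, DESeq2 size factors, no filter, the fit of 4 groups, 1 surrogate variable, library weights and marker scores as covariates, and under 11 of the 12 fits that left out 1 library (range 0 to 1). Without vehicle library FTL_309 there was 1 call, Vwf, the von Willebrand factor of endothelium (log2 fold change 0.54, adjusted p = 0.0368). With all libraries Vwf was at 6.84 to 13.0 CPM with vehicle, library FTL_309 being the highest, and 10.4 to 12.2 CPM with THC (log2 fold change 0.37, adjusted p = 0.991). The 757 genes at an unadjusted p under 0.05 (of 16428 tested) became 1371 with no filter (of 29757 tested), 1138 with library weights and 534 to 1369 with 1 library left out, the highest without THC library FTL_317. The share of intervals within 0.4 of 0 was 40.1% with no filter and 40.2% with DESeq2, which both test more genes of low level. The count of 1 for the region interaction was 12 with DESeq2, 2 with no filter and 0 to 2 with 1 library left out. The sex interaction stayed at 0 calls with DESeq2 and with no filter. The 24 genes of smallest p kept the sign of their log2 fold change in all 456 values under the alternatives. Adjusted p-values of those genes were 0.138 or more in each. The 24 were chosen by p in libraries that every alternative reused in whole or in part, so a kept sign was largely fixed by that choice. Of 5320 such values of 280 listed genes, which were not chosen by p, 451 had the other sign. THC and vehicle were given to different mice, so the comparison of the groups is unpaired.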
